A study of Mus musculus with 8 samples.

Results

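The nuclei described here are those that the deposited annotation of the paraflocculus/flocculus (PF/F) of the mouse cerebellum calls Meningeal. They number 706 of the 48237 annotated PF/F nuclei, and of the 79313 nuclei annotated in all 8 libraries of the series. They were taken by that label, matched by library and barcode to the raw counts, and summed within each library. The PF/F is the small lateral part of the cerebellum that sits in a pocket of the petrous temporal bone (PTB), and the series asked what loss of 1 copy of Tbx1 does in both tissues.

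The meninges are the layered membranes between brain and skull. The pia lies on the brain, the arachnoid encloses the fluid space and carries its barrier layer, and the dura lines the bone. Their fibroblasts lay down the basement membrane that covers the brain surface, release retinoic acid and growth factors that act on the developing cortex and cerebellum, and move solutes between brain fluid and blood.

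Nuclei of the PF/F were profiled by single-nucleus RNA sequencing at postnatal day 5.5 in 4 libraries, 2 of wild-type (WT) mice and 2 of Tbx1+/- mice, which carry 1 functional copy of this T-box transcription factor gene in every cell. WT mice were littermates, both sexes were used, and the strain had been backcrossed to C57BL/6J. Each library held nuclei of a pool of 5 mice, so no value belongs to a single animal, and the library is the replicate (n = 2 per genotype). Replicates 1 and 2 came from separate experiments, called batch 1 and batch 2 here, each with a WT and a Tbx1+/- library. The 4 PTB libraries had the same age, pool size and genotypes (2 per genotype), and means over them cover both genotypes. Levels are given as CPM, counts per 1000000 UMIs (unique molecular identifiers, counted RNA molecules) of the summed nuclei. CPM is not corrected for gene length, so levels are compared for the same gene across nuclei and not between genes.

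WT replicates 1 and 2 held 155 and 123 Meningeal nuclei, and Tbx1+/- replicates 1 and 2 held 227 and 201. Their sums came to 505082 to 806584 UMIs per library, with a median of 2806 to 3289 UMIs and 1749 to 1967 genes per nucleus. At this depth 3 UMIs, the limit that a count of 0 allows, stand for 3.72 to 5.94 CPM. No Meningeal barcode was shared between libraries. Tbx1 itself (chr16:18580979-18590671, minus strand, GRCm38) was at this limit. It had 1 UMI in each WT library and 0 in each Tbx1+/- library among Meningeal nuclei, against 4, 10, 11 and 13 UMIs over all annotated PF/F nuclei of WT 1, WT 2, Tbx1+/- 1 and Tbx1+/- 2, of which 0, 6, 8 and 6 were in Endothelial nuclei. These counts are too few to check the genotype labels in the PF/F or to give a fold. The 2 batches also differed in Xist, the RNA of the silenced X chromosome, at 402 and 668 CPM in batch 1 libraries and 1681 and 1836 CPM in batch 2 libraries, and the pools were not labelled by sex.

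Marker levels describe the label and are no test of it, since the types were clustered on expression and curated by markers. Summed over 6 fibroblast genes, the Meningeal nuclei reached 2132 to 3332 CPM per library, and over 6 leptomeningeal genes 1332 to 3530 CPM. Both sums were the highest of the 16 annotated types. Of the leptomeningeal sum, Ptgds alone gave 1666 and 303 CPM in the WT libraries and 2416 and 991 CPM in the Tbx1+/- libraries. Mural markers summed to 54.0 to 81.2 CPM, against 3324 CPM in Pericyte nuclei, with Myh11 at 0, and endothelial markers to 127 to 161 CPM, against 5020 CPM in Endothelial nuclei. Muscle markers stayed at 7.92 to 14.9 CPM with Myh3 at 0. Some neural markers were present, with 301 to 463 CPM of granule lineage genes, against 1582 CPM in Diff.Granule Neuron nuclei. The 933 to 1395 CPM of astroglial genes came mostly from the glutamate transporter Slc1a3, at 803 and 1204 CPM in the WT libraries and 1076 and 1239.8 CPM in the Tbx1+/- libraries.

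The leading genes of the Meningeal nuclei were extracellular matrix genes, organic solute transporters and secreted factors. Among 3706 genes with at least 50 CPM in every library, the 25 with the largest ratio to the highest of the other 15 types lay between 6.44-fold (Itga8) and 59.8-fold (Dcn). Since the types were drawn by clustering on these genes, the ratios describe the label and carry no test. Dcn, which codes for the collagen-binding proteoglycan decorin, was at 465 and 641 CPM in the WT libraries and 587 and 632 CPM in the Tbx1+/- libraries, and at 9.72 CPM in Endothelial nuclei, the next type. Ranbp3l, a nuclear export factor gene, was at 1032 and 1099 CPM in the WT libraries and 978 and 1013 CPM in the Tbx1+/- libraries and 42.0-fold above the next type. For both, the spread over the 4 libraries was far smaller than the gap to the next type.

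**Figure D1:**
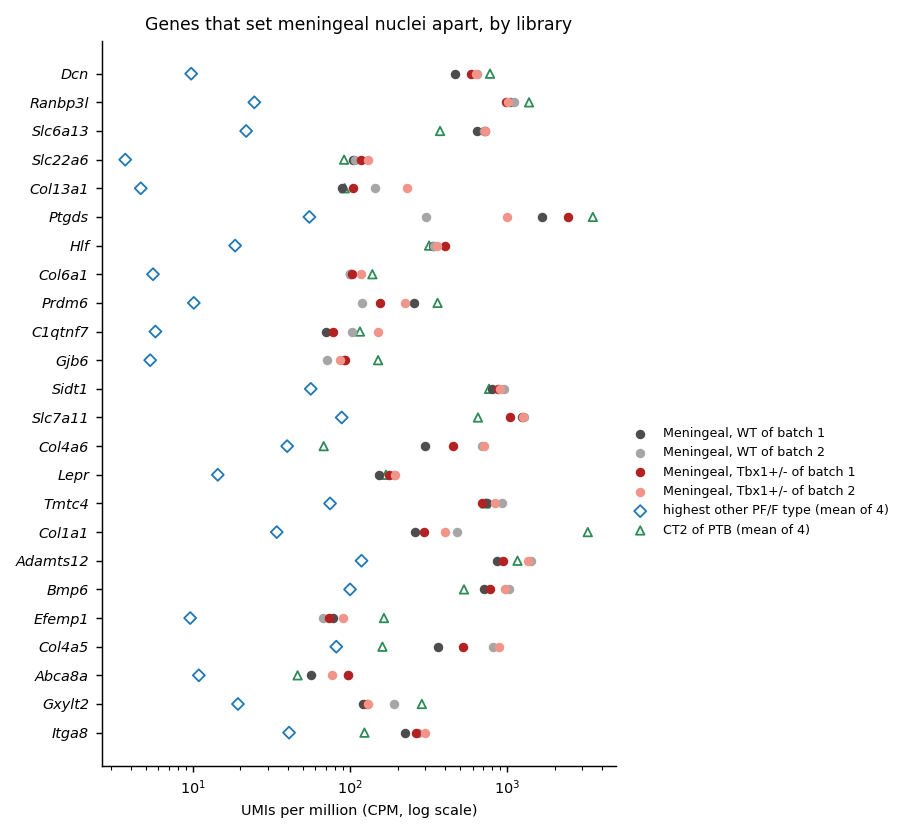
Levels of 24 of the 25 leading genes of Meningeal nuclei in CPM on a log axis. Points are the 4 libraries, open diamonds the highest mean among the other 15 PF/F types and open triangles the mean of CT2, a connective tissue type of the PTB libraries. All library points of a gene lie above its diamond, with the libraries of most genes close together and those of Ptgds spread from 303 to 2416 CPM.

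The transporters among the 25 included some that carry neurotransmitters and organic anions at the arachnoid barrier. Slc6a13, a GABA and taurine transporter, was at 636 and 713 CPM in the WT libraries and 718 and 719 CPM in the Tbx1+/- libraries, against 21.7 CPM in Pericyte nuclei. Slc22a6, an organic anion transporter, was at 104 and 107 CPM in the WT libraries and 118 and 129 CPM in the Tbx1+/- libraries. Slc7a11, the cystine and glutamate exchanger, was at 1242 and 1269 CPM in the WT libraries and 1043 and 1259.6 CPM in the Tbx1+/- libraries. This was 13.7-fold above the Pericyte mean, which varied widely (88.2 ± 133 CPM, SD, n = 4), with Astroglia next at 33.6 CPM. These 3 varied less between libraries than they exceeded any other type. Gjb6, a gap junction gene, was at 91.8 and 71.3 CPM (WT) and 92.0 and 85.5 CPM (Tbx1+/-) against 5.33 CPM in Pericyte. Bmp6, a secreted bone morphogenetic protein gene, was at 709 and 1019.6 CPM (WT) and 777 and 966 CPM (Tbx1+/-), and Sidt1, which codes for a membrane protein linked to RNA transport, was at 801 and 948 CPM (WT) and 866 and 898 CPM (Tbx1+/-). The leptin receptor gene Lepr had 151 and 190.1 CPM (WT) and 176 and 192 CPM (Tbx1+/-). The highest other type was Pericyte for 8 of the 25 genes, Immune for 4, Endothelial and Astroglia for 3 each, and other types for the rest. Pericyte held only 74 nuclei over the 4 libraries, of which 4 had a UMI of Slc6a13 and 5 a UMI of Slc7a11. Ranks and folds against Pericyte therefore rest on few nuclei.

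Free RNA in the droplets can put a gene's UMIs into nuclei that do not express it, so shares of nuclei are given beside those of a type that should lack the gene. At least 1 UMI of Col3a1 was found in 77.1% of Meningeal nuclei and in 1.86% of Diff.Granule Neuron nuclei (median 3047.5 and 2973 UMIs per nucleus). For Slc6a13 the shares were 77.3% and 0.525%, for Ranbp3l 73.8% and 0.755%, and for Dcn 71.7% and 1.70%. Ptgds was different, with 26.1% of Meningeal and 9.96% of Diff.Granule Neuron nuclei. With every nucleus thinned to 1500 UMIs, which left 701 and 18200 nuclei, Ptgds shares were 18.3% and 5.54%. The share in granule neurons followed the library, from 1.99% to 17.2%, as did the share in Meningeal nuclei, from 6.50% to 36.6%.

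Some of the leading genes were also high in connective tissue of the PTB libraries. Of the 25 leading genes, 16 had their highest level among the 4 PTB connective types (CT1 to CT4) in CT2. The highest type was CT1 for 6, CT4 for 2 and CT3 for 1. These counts have no share over all genes beside them and are descriptions. For some of the 16 the margin was small, as for Dcn at 615 CPM in CT1 and 774 CPM in CT2. Ranbp3l was at 11.8, 1372, 11.7 and 11.1 CPM in CT1 to CT4 (means of 4 libraries, 2 of each genotype). In the same order Slc6a13 was at 3.76, 373, 0.843 and 4.04 CPM, and Sidt1 at 3.93, 764, 3.80 and 5.52 CPM. For these genes CT2 was of the same order as the Meningeal nuclei of the PF/F and the other CT types were at no more than 11.8 CPM. Other genes set the 2 apart. Col1a1, a fibrillar collagen gene, was at 357 ± 99.8 CPM (SD, n = 4) in Meningeal nuclei and 3243 CPM in CT2, and Col4a6, a basement membrane collagen gene, was at 538 ± 197 CPM in Meningeal nuclei and 67.7 CPM in CT2. The tissues were dissected and prepared differently, so tissue and preparation cannot be told apart in these pairs.

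The fibrillar matrix genes were present throughout. Col3a1 (chr1:45311538-45349706, plus strand), which marks fibroblasts and codes for type III collagen, was at 700.5 and 998 CPM in the WT libraries and 840.1 and 1008 CPM in the Tbx1+/- libraries, a mean of 887 ± 146 CPM (SD, n = 4), against 208 CPM in Pericyte nuclei. Col1a2 was at 306 and 735 CPM in the WT libraries and 369 and 466 CPM in the Tbx1+/- libraries, against 116 CPM in Pericyte. Of 30 interstitial matrix genes, 18 were higher in Meningeal sums than in each other type, 16 of them among the 28 with enough UMIs for a test between genotypes. This count and those of the lists below include genes with few UMIs. They have no share over all genes beside them and are descriptions. Of 20 basement membrane genes, which vessels also express, 8 exceeded every other type. Col4a5 and Col4a6, whose chains join in a collagen IV network, were at 362 and 806 CPM (WT) and 518 and 886 CPM (Tbx1+/-) and 299 and 685 CPM (WT) and 453 and 714 CPM (Tbx1+/-). Lama2, a laminin chain gene, was at 682 and 911 CPM (WT) and 710.3 and 971 CPM (Tbx1+/-), with 513 CPM in Pericyte. Col4a1, by contrast, was at 333 and 497 CPM (WT) and 489.7 and 649.7 CPM (Tbx1+/-), below the 1811 CPM of Pericyte.

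Genes of the retinoic acid pathway were detected for 17 of 19 members, and 9 were higher in Meningeal sums than in any other type. Of these 9, 6 were among the 11 members with enough UMIs for a test between genotypes. Aldh1a2, which makes retinoic acid, was at 131 and 137 CPM (WT) and 156 and 179 CPM (Tbx1+/-) against 29.6 CPM in Pericyte. Rarb, a retinoic acid receptor gene, was at 146 and 218 CPM (WT) and 165 and 197 CPM (Tbx1+/-). The means of both were above those of every other type. Cyp26b1, which breaks retinoic acid down, was at 61.2 and 15.8 CPM (WT) and 62.2 and 64.5 CPM (Tbx1+/-), far below the 882 CPM of Astroglia, with WT replicate 2 standing below the other 3 libraries.

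Among the 30 meningeal transcription factor genes, 12 exceeded every other type, 9 of them among the 24 with enough UMIs for a test. Foxc1, which meningeal development requires, was at 30.6 and 45.5 CPM (WT) and 66.3 and 52.1 CPM (Tbx1+/-), and Foxd1, a factor of mesenchymal progenitors, at 133 and 180.2 CPM (WT) and 135 and 133 CPM (Tbx1+/-) against 58.3 CPM in Pericyte. Ebf1 and Foxp1 had higher levels in Purkinje and Endothelial nuclei than here. In the T-box family, 11 of 14 genes had a UMI and 3 reached the level needed for a test. Tbx18, a factor of mesenchyme and mural cells, was at 176 and 311 CPM (WT) and 216 and 296 CPM (Tbx1+/-) against 63.9 CPM in Pericyte. Tbx15 was at 95.4 and 141 CPM (WT) and 111 and 95.5 CPM (Tbx1+/-) and Mga at 129.6 and 158 CPM (WT) and 138 and 176 CPM (Tbx1+/-), both near their Pericyte levels of 133 and 161 CPM. Tbx2 reached at most 17.8 CPM.

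Secreted signals were measured for all 41 listed genes, and 12 were highest in Meningeal nuclei. Ptn, which codes for the growth factor pleiotrophin, was at 2845 and 2742 CPM (WT) and 3508 and 3511 CPM (Tbx1+/-), above the 1986 CPM of Astroglia. Igf2, a growth factor, was at 339 and 483 CPM (WT) and 528 and 622 CPM (Tbx1+/-), and Cxcl12, the chemokine that the meninges present to granule progenitors, at 266 and 309 CPM (WT) and 292 and 392 CPM (Tbx1+/-) against 186 CPM in Endothelial nuclei. These 3 were above every other type in their means. In the IGF pathway, 3 of 10 genes were highest here, among them Igfbp2, a binding protein gene, at 294 and 228 CPM (WT) and 353 and 365 CPM (Tbx1+/-). Of 25 solute carriers and efflux pumps, 14 were highest in Meningeal nuclei, among them Slc6a20a, a proline transporter, at 669.8 and 655 CPM (WT) and 653 and 682 CPM (Tbx1+/-). Of 17 junction and adhesion genes, 6 were highest here, among them Alcam, a cell adhesion receptor gene, at 1091 and 867 CPM (WT) and 961 and 1273 CPM (Tbx1+/-), and Gja1, the gap junction gene connexin 43, at 360.1 and 343 CPM (WT) and 353 and 372 CPM (Tbx1+/-). Of the other lists, 4 of 12 prostaglandin pathway genes, 1 of 20 growth factor receptors, 1 of 13 hedgehog and Wnt genes and 0 of 16 cell cycle genes were highest in Meningeal nuclei. Only 2 of those 4 prostaglandin pathway genes had enough UMIs for a test. For the mouse region syntenic to 22q11.2, 35 of 37 listed names were matched, 32 had a UMI and 3 were highest here.

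Clustering of the 706 nuclei alone gave 10 subclusters, of which 1 was named from markers of meningeal layers. The genes that define a subcluster were part of the clustering, so their levels are descriptions. The largest, subcluster 1 with 130 nuclei, held the highest level of all 3 pia markers. Lama1, a laminin chain gene of the pial basement membrane, was at 1289.8 CPM there, S100a6 at 121 CPM and Ngfr at 29.6 CPM. None of these was among its 10 leading genes, which included Asic2, Col4a1 and the haemoglobin genes Hba-a2 (148 CPM) and Hba-a1 (169 CPM), and Hbb-bs also peaked in it (529.5 CPM). The naming rule asked for at least 3 markers of a list at their highest and at least 1 in the lead. The pia list failed it, with 0 in the lead. The erythroid list met it, with 2 in the lead, but the pia markers peaked there too, and subcluster 1 was left unnamed. Col4a1 (1645 CPM), Col4a5 (1547 CPM), Tbx18 (615 CPM) and Cxcl12 (840.1 CPM) peaked in the same subcluster.

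The arachnoid barrier and dural border-like subcluster held 71 nuclei. Slc47a1, an organic cation exporter gene, was at 493 CPM, Cdh1, the epithelial cadherin gene, at 372 CPM, Dpp4, a surface peptidase gene, at 255 CPM and Klf5 at 89.6 CPM, each at its highest, while the remaining marker Cldn11 peaked in subcluster 2. Among 5 dura markers, Mgp (259.9 CPM), Ccn3 (215 CPM), Fxyd5 (166 CPM) and Alpl (26.9 CPM) also peaked there, and Mgp was among its 10 leading genes. The dura list thus met the naming rule in the same subcluster, and no separate dura-like group was seen. It is called barrier-like below for short, and the markers do not set barrier and dura apart. Bnc2 (3159 CPM) and Foxp1 (3397 CPM), transcription factor genes, were at their highest in it.

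Subcluster 9 was small, with 33 nuclei, and was led by Ptgds, at 23717 CPM. Of the 4 inner arachnoid markers, Aldh1a2 (533 CPM), Wnt6 (116 CPM) and Crabp2 were at their highest there, Crabp2 on 3 UMIs, and Slc22a8 peaked in subcluster 6. None of the 4 was among its 10 leading genes, so it was left unnamed as well. It was uneven across libraries, with 9, 1, 15 and 8 nuclei in WT 1, WT 2, Tbx1+/- 1 and Tbx1+/- 2. The barrier-like subcluster had 23, 7, 27 and 14 nuclei, and subcluster 1 had 16, 30, 34 and 50. In WT replicate 2, Cdh1 was at 5.94 CPM against 55.5 to 68.4 CPM in the other 3 libraries, and Rbp4, a retinol carrier gene that is among the leading genes of subcluster 9, was at 0 against 54.1 to 70.7 CPM.

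**Figure D2:**
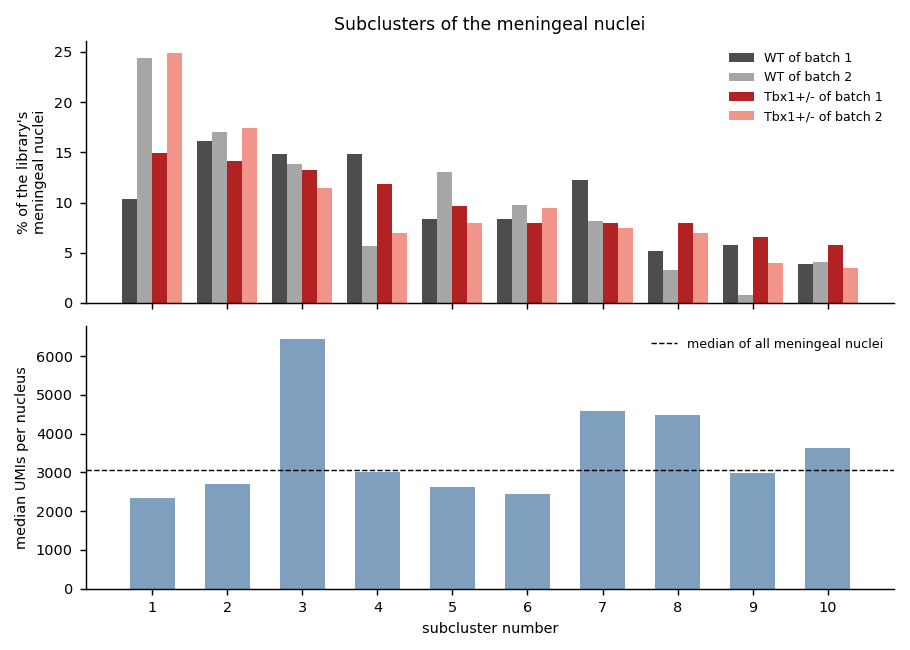
Subclusters of the 706 Meningeal nuclei. The upper panel gives the percentage of each library's Meningeal nuclei in each subcluster and the lower panel the median UMIs per nucleus, with the median of all Meningeal nuclei (3047.5) as a dashed line. The share of subcluster 1 runs from 10.3% to 24.9% and that of subcluster 9 from 0.813% to 6.61%, and subclusters 3, 7 and 8 stand highest against the line.

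The 7 subclusters not yet described also stayed unnamed. Subcluster 5, with 67 nuclei, had the highest Col3a1 (1994 CPM) and Dcn (1099 CPM). Its 10 leading genes included Arhgap24, Fap, a surface peptidase gene, and Alx4, a homeobox gene. Subcluster 6, with 62 nuclei, was led by A2m, Dlk1, Aldh1a1 and Igf2, with Igf2 at 1438 CPM and Slc7a11 at 3179.6 CPM. Subcluster 10, with 31 nuclei, was led by the cell division genes Aspm, Cenpa and Nusap1, with Top2a at 1126 CPM. Subcluster 2, with 113 nuclei, was led by the macrophage genes Mrc1, Stab1 and Pf4, but few nuclei carried them. Over 5 macrophage genes, 7 of the 706 nuclei had at least 5 UMIs, 4 of them in Tbx1+/- replicate 1, and these held 63 of that library's 68 Mrc1 UMIs.

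Subclusters 3, 7 and 8 held 199 nuclei with more RNA and with genes of neural types. Their median UMIs per nucleus were 6444, 4572.5 and 4488.5, against 3047.5 over all Meningeal nuclei, and they held 40.0% to 48.3% of the UMIs of each library's Meningeal sum. Subcluster 3 (93 nuclei) was led by Galntl6 and Tenm2 and had the neuronal gene Rbfox3 at 316 CPM. Subcluster 7 (62 nuclei) had Ebf3 as its leading gene and Pax6, a granule lineage factor, at 357 CPM. Subcluster 8 (44 nuclei) was led by Gria1, 8030451A03Rik and Tnc, with the glial genes Gfap at 127 CPM, Aqp4 at 228 CPM and Mbp at 246 CPM. Whether these nuclei were doublets of a meningeal and a neural nucleus was not tested, and the main genotype differences are given with and without them where enough UMIs are left.

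Ptgds (chr2:25466709-25470046, minus strand), which codes for prostaglandin D2 synthase and is a leptomeningeal marker, was carried by few nuclei. Meningeal nuclei held 925, 153, 1786 and 799 Ptgds UMIs in WT 1, WT 2, Tbx1+/- 1 and Tbx1+/- 2, or 1666 and 303 CPM in the WT libraries and 2416 and 991 CPM in the Tbx1+/- libraries. The 33 nuclei of subcluster 9 held 66.9% of all 3663 UMIs, with 58.3%, 27.5%, 69.7% and 78.0% in the 4 libraries. The 10 nuclei with the most held 44.4%, and 52 of 706 nuclei had at least 10 UMIs. Outside that subcluster Ptgds was at 730.3, 221, 779.6 and 226 CPM in the same order of libraries. In all other PF/F nuclei it was at 41.9, 5.00, 69.6 and 17.1 CPM, the same order of libraries as in the Meningeal nuclei. Its genotype difference on the log2 scale was 0.78 (SE 0.59), and 1 library decides it, with 2.52 without WT replicate 1 and -0.02 without Tbx1+/- replicate 1. With a batch term the difference was 1.06 (SE 0.14, adjusted p 7.35e-10 in edgeR), a call that the fit without it did not make. Within batch 1 the log2 difference was 0.54 and within batch 2 it was 1.71, a disagreement far wider than that SE. Without subclusters 3, 7 and 8 the difference was 0.88 (SE 0.94), and 1.59 (SE 0.19) with the batch term.

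**Figure D3:**
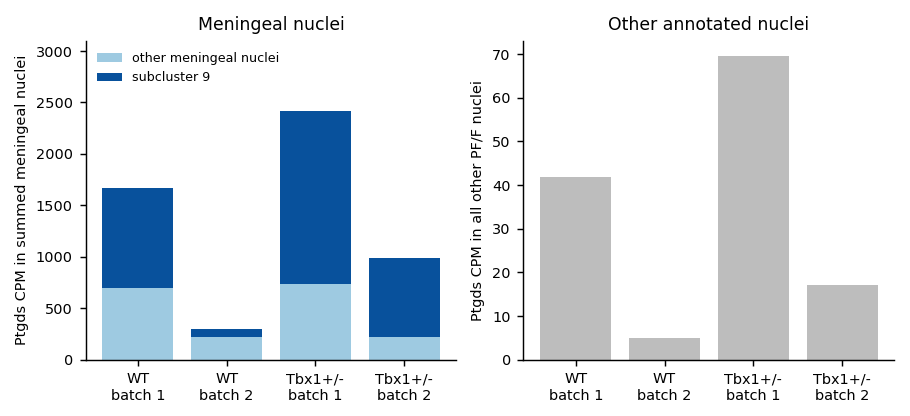
Ptgds in Meningeal nuclei by library. Stacked bars on the left give Ptgds in CPM of the Meningeal sums, split into subcluster 9 and all other Meningeal nuclei, and bars on the right give Ptgds in CPM in all other PF/F nuclei. Both panels are lowest in WT batch 2 and highest in Tbx1+/- batch 1.

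The libraries separated by batch for many genes. Over 10002 genes tested in the Meningeal sums, 4681 (46.8%) did not overlap between batches, 2499 of them higher and 2182 lower in batch 2. Of 18 basement membrane genes tested, 13 did not overlap, 12 of them higher in batch 2. Lama1 was at 167 and 287 CPM (batch 1) against 503 and 599 CPM (batch 2), Col4a5 at 362 and 518 CPM (batch 1) against 806 and 886 CPM (batch 2) and Col4a1 at 333 and 489.7 CPM (batch 1) against 497 and 649.7 CPM (batch 2), with no overlap between batches. Of 28 interstitial matrix genes, 19 did not overlap, 16 of them higher in batch 2, and 7 of 10 hedgehog and Wnt genes were higher, among them Gli2 at 97.2 and 83.9 CPM (batch 1) against 109 and 134 CPM (batch 2) and Lef1 at 48.6 and 36.5 CPM (batch 1) against 101 and 84.3 CPM (batch 2). In the other direction, 7 of 12 cell cycle genes were lower in batch 2, and 0 higher, with Top2a at 199.9 and 185 CPM (batch 1) against 168 and 104 CPM (batch 2). Of 22 solute carriers, 11 did not overlap, near the share of all genes. Of those, 8 were lower in batch 2, with Slc38a2, an amino acid transporter, at 708 and 616 CPM (batch 1) against 350.4 and 378 CPM (batch 2). Fewer separated in other lists, with 1 of 8 IGF pathway, 6 of 24 transcription factor, 4 of 14 junction and 5 of 16 growth factor receptor genes. The rest were 12 of 33 secreted signals, 4 of 11 retinoic acid, 2 of 3 T-box, 2 of 4 prostaglandin and 9 of 21 22q11.2 syntenic genes. These counts are descriptions and were not tested, and each batch was 1 experiment.

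The share of subcluster 1, where the pia markers peaked, was also higher in batch 2. It was 10.3% and 15.0% in batch 1 and 24.4% and 24.9% in batch 2. The clustering made no correction for batch, and Col4a1 was among the leading genes of subcluster 1. Its share is thus not independent of the batch difference in levels. Lama1 differed in the same way within subcluster 1, at 657, 1376, 942 and 1596 CPM in WT 1, WT 2, Tbx1+/- 1 and Tbx1+/- 2, and outside it, at 135, 342, 205 and 384 CPM. Col4a1 overlapped between batches within subcluster 1, at 1000.3, 1401, 1787 and 1855 CPM in the same order, and did not overlap outside it, at 288, 331, 329 and 390.2 CPM. Col4a5 did not overlap within it, at 1000.3, 1669, 1028 and 1911 CPM, nor outside it, at 319, 647, 455 and 666 CPM. Mitochondrial UMIs made up 0.816% and 0.802% of the Meningeal UMIs in batch 1 and 0.373% and 0.570% in batch 2. The authors also gave UMIs corrected for free RNA. Their median ratio to raw UMIs in Meningeal nuclei was 0.719 and 0.725 in batch 1 and 0.793 and 0.791 in batch 2. The part of these measures in the batch difference was not tested.

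**Figure D4:**
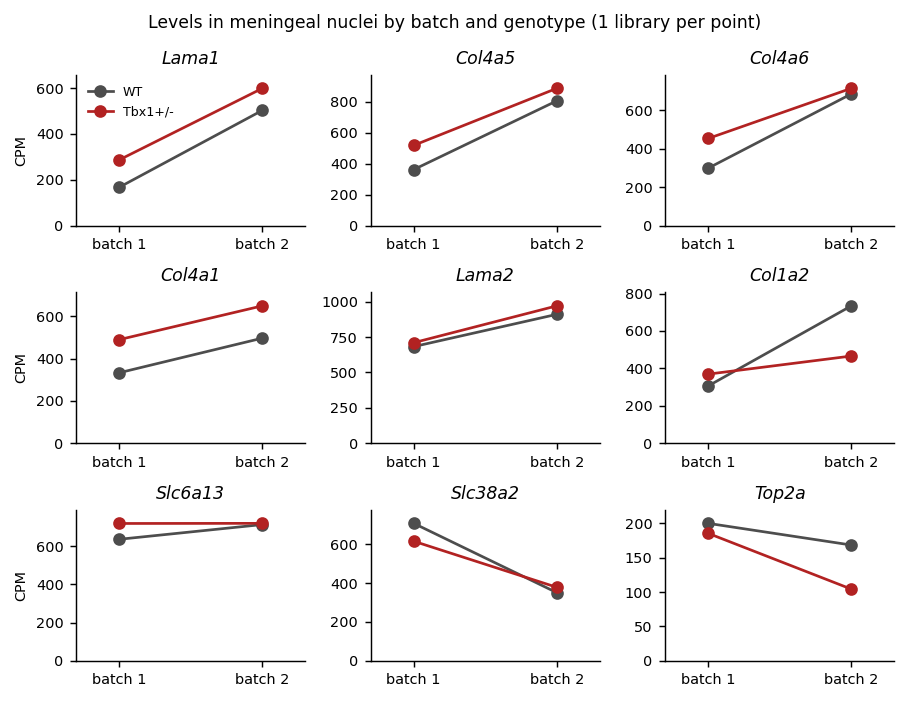
Levels by batch in the Meningeal sums, in CPM, for 9 genes, with 1 library per point and a line joining the libraries of a genotype. The basement membrane genes Lama1, Col4a5, Col4a6, Col4a1 and Lama2 lie higher in both batch 2 libraries, Top2a and Slc38a2 lie lower, and Slc6a13 is at 636 to 719 CPM in all 4.

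Whether loss of 1 Tbx1 copy changed the share or the expression of these nuclei was the comparison the design set. The Meningeal share of annotated PF/F nuclei was 1.26% (95% exact binomial interval 1.07 to 1.48) and 1.34% (1.12 to 1.60) in WT and 1.64% (1.44 to 1.87) and 1.55% (1.34 to 1.77) in Tbx1+/-. The libraries of the genotypes did not overlap, and the means were 1.30% and 1.59%. The difference was 0.29 on the log2 scale (SE 0.17), which did not pass the threshold (edgeR's quasi-likelihood test with Benjamini-Hochberg adjustment over 16 types, adjusted p 0.976). The exact two-sided permutation test over libraries gave p 0.333, the smallest value that 2 against 2 libraries allow. Within batch 1 the log2 difference was 0.38 and within batch 2 it was 0.20.

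No gene of the Meningeal nuclei passed the test between genotypes. Of 10002 genes, 0 had an adjusted p under 0.05 with a change over 1.5-fold in edgeR's quasi-likelihood test with Benjamini-Hochberg adjustment. DESeq2 called 0 as well, and 203 genes (2.03%) had an unadjusted p under 0.05 in edgeR. Without regard to a test, 1282 genes (12.8%) were higher and 1391 (13.9%) lower in both Tbx1+/- libraries than in both WT libraries. A fit that carries a batch term called 24 genes (0.240%), 8 higher and 16 lower in Tbx1+/-. Of those 24, 11 of the 16 lower genes had their highest level in subcluster 3, where 7.86% of all tested genes had theirs. Subcluster 3 held 25.8% and 28.2% of the Meningeal UMIs in the WT libraries and 18.9% and 22.7% in the Tbx1+/- libraries. The part of this share in the lower genes was not tested. Without subclusters 3, 7 and 8 the fit with the batch term called 10 genes of 7416, and 5 of these, Ptgds, Asic2, Slit3, Ttr and Hbb-bs, were among the 24. Of the 24 genes, 11 still had enough UMIs for that test. The batch term leaves 1 residual degree of freedom, and edgeR then took the spread of a gene from the trend over all genes, so within-batch differences that disagree do not widen its p-values. Leaving out WT 1, WT 2, Tbx1+/- 1 or Tbx1+/- 2, which assumes that the lone library of a genotype varies like the others, gave 47, 9, 10 and 7 calls, with 8030451A03Rik among them each time.

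**Figure D5:**
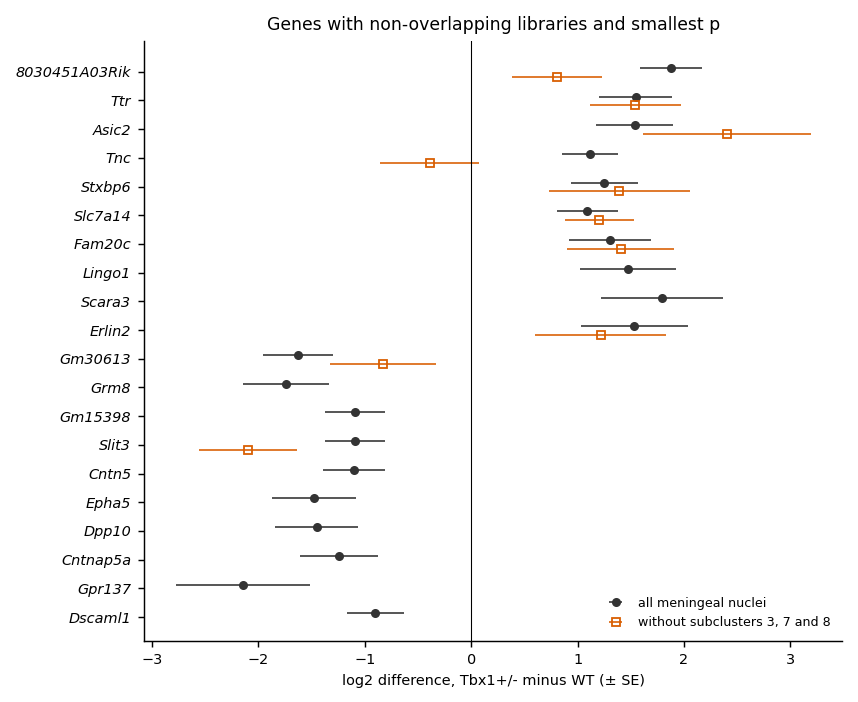
Log2 difference between Tbx1+/- and WT with its SE for the 10 genes in each direction with the smallest unadjusted p among those whose libraries do not overlap, in all Meningeal nuclei (filled circles) and without subclusters 3, 7 and 8 (open squares, absent where too few UMIs were left for a test). Tnc moves from 1.11 to -0.39 and 8030451A03Rik from 1.88 to 0.81, while Ttr stays at 1.55 and 1.54.

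The gene with the smallest p was 8030451A03Rik, a long noncoding RNA gene (chr4:63979854-64149924, plus strand) that overlaps Tnc, which codes for the matrix protein tenascin C, on the opposite strand (chr4:63959785-64047015). 8030451A03Rik was at 50.4 and 35.6 CPM in the WT libraries and 147 and 171 CPM in the Tbx1+/- libraries, and its log2 difference was 1.88 (SE 0.29), with an adjusted p of 0.195 without and 1.16e-10 with the batch term in edgeR. Tnc was at 57.6 and 69.3 CPM in the WT libraries and 135 and 139 CPM in the Tbx1+/- libraries, with a log2 difference of 1.11 (SE 0.27, unadjusted p 0.000977) and an adjusted p of 0.00147 with the batch term in edgeR. Both genes were higher in both Tbx1+/- libraries, which was part of the rule by which they were named. Both also peaked in subcluster 8 (754 and 627 CPM), which held 8, 4, 18 and 14 nuclei in WT 1, WT 2, Tbx1+/- 1 and Tbx1+/- 2 and 13, 0, 54 and 105 of the 8030451A03Rik UMIs. Without subcluster 8 alone, the log2 difference was 0.97 (SE 0.37) for 8030451A03Rik and 0.48 (SE 0.41) for Tnc, and neither was called with the batch term. Without subclusters 3, 7 and 8 it was 0.81 (SE 0.42) and -0.39 (SE 0.47). Astroglia held both at higher levels, 3238 and 2150.2 CPM. Whether the authors' counting used strand is not given in the sources used here, and without it reads of the 2 genes cannot be told apart in the overlap.

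The difference in 8030451A03Rik was larger in Meningeal nuclei than in the rest of the PF/F. All other annotated nuclei had 516 and 579 CPM in WT and 542 and 494 CPM in Tbx1+/-. The interaction of genotype and class was 1.94 on the log2 scale (SE 0.27, adjusted p 0.0164 in edgeR's quasi-likelihood test with Benjamini-Hochberg adjustment), and it was the 1 gene called of 10002 (0.0100%), where 379 had an unadjusted p under 0.05. It was not called without subcluster 8 (interaction 1.03, SE 0.35) or without subclusters 3, 7 and 8 (0.91, SE 0.39), each of which gave 0 calls. Leaving out the nuclei in the top 8% by UMI count, or Tbx1+/- replicate 2, also gave 0 calls, but the interaction kept much of its size, at 1.65 (SE 0.41) and 1.79 (SE 0.31). Without WT replicate 1, WT replicate 2 or Tbx1+/- replicate 1 the interaction called 45, 40 and 2 genes.

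Of the other genes with a small p and no overlap, Ttr also differed in the rest of the PF/F. Ttr, the transthyretin gene of the choroid plexus, was at 68.4 and 47.5 CPM in the WT libraries and 118 and 223 CPM in the Tbx1+/- libraries, with a log2 difference of 1.55 (SE 0.34, unadjusted p 0.000525). All other PF/F nuclei had 75.6, 75.8, 131 and 289 CPM in WT 1, WT 2, Tbx1+/- 1 and Tbx1+/- 2, and the interaction was 0.06 on the log2 scale. Within batch 1 the Meningeal log2 difference was 0.77 and within batch 2 it was 2.21. The 6 choroid plexus markers all had UMIs, and the sum over the 5 other than Ttr overlapped between genotypes, at 48.6 and 37.6 CPM in WT and 69.0 and 43.4 CPM in Tbx1+/-. Asic2, an acid-sensing ion channel gene, was at 126 and 131 CPM in the WT libraries and 221 and 524 CPM in the Tbx1+/- libraries. In Tbx1+/- replicate 2, 337 of its 423 UMIs lay in subcluster 1, and 1 nucleus of that library held 163 UMIs, 22.6% of all Asic2 UMIs in Meningeal nuclei. Its log2 difference was 0.80 within batch 1 and 2.00 within batch 2. Without subclusters 3, 7 and 8 its log2 difference was 2.40 (SE 0.79) but its levels overlapped, at 62.7, 92.6, 92.4 and 740.3 CPM in WT 1, WT 2, Tbx1+/- 1 and Tbx1+/- 2, with Tbx1+/- replicate 2 alone standing apart. Slit3, which codes for a secreted guidance protein, was lower at 211 and 289 CPM in the WT libraries and 139 and 94.2 CPM in the Tbx1+/- libraries, with a log2 difference of -1.09 (SE 0.28, unadjusted p 0.00193). The barrier-like subcluster of WT replicate 2 held 73 of that library's 146 Slit3 UMIs in 7 nuclei. Without subclusters 3, 7 and 8 its log2 difference was larger, at -2.10 (SE 0.46), and it was still called with the batch term. Slit3 then had 43, 83, 32 and 14 UMIs in WT 1, WT 2, Tbx1+/- 1 and Tbx1+/- 2. In that order, 33, 73, 21 and 4 of these lay in the barrier-like subcluster, on which this larger difference mostly rests. Asic2, Ttr and Slit3 were called with the batch term, Slit3 with an adjusted p of 1.78e-05 and Ttr with 2.08e-07 in edgeR.

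Others on the higher side were Slc7a14, a lysosomal transporter gene, at 41.4 and 47.5 CPM in the WT libraries and 101 and 88.0 CPM in the Tbx1+/- libraries (log2 difference 1.09 (SE 0.28)), Stxbp6, a vesicle fusion gene, at 37.8 and 25.7 CPM in the WT libraries and 75.8 and 76.9 CPM in the Tbx1+/- libraries (log2 difference 1.25 (SE 0.31)), and Fam20c, which codes for a kinase of secreted proteins, at 19.8 and 13.9 CPM in the WT libraries and 44.6 and 39.7 CPM in the Tbx1+/- libraries. The first 2 of these were called with the batch term and Fam20c was not. Without subclusters 3, 7 and 8 the log2 differences were 1.21 (SE 0.32) for Slc7a14, 1.39 (SE 0.66) for Stxbp6 and 1.41 (SE 0.50) for Fam20c, and none of the 3 was called there with the batch term. Lingo1, Scara3 and Erlin2 followed with log2 differences of 1.48, 1.79 and 1.53 at no more than 36.5 CPM in any library. In the same order these were 2.118, 1.566 and 2.345 without WT replicate 1 and 1.063, 2.065 and 1.055 without WT replicate 2. On the lower side, 7 of 10 genes had their highest level in subcluster 3. Grm8, a glutamate receptor gene, was at 68.4 and 39.6 CPM in the WT libraries and 12.2 and 19.8 CPM in the Tbx1+/- libraries, and 88.0% of its 83 UMIs lay in that subcluster. Dpp10, Cntn5, Epha5, Cntnap5a and Dscaml1, genes of neuronal surface proteins, and the noncoding RNA gene Gm15398 were at log2 differences of -0.90 to -1.48. For Dpp10, Cntn5, Epha5 and Cntnap5a, 5 nuclei held 47.0% to 50.6% of the UMIs, and for Gm15398 and Dscaml1 36.8% and 24.1%. In WT replicate 2, 1 nucleus held 38 of 60 Epha5 UMIs, and 1 held 25 of 31 Cntnap5a UMIs. Without that nucleus Cntnap5a overlapped between genotypes, at 41.4, 12.1, 25.7 and 17.4 CPM in WT 1, WT 2, Tbx1+/- 1 and Tbx1+/- 2. Without the nuclei in the top 8% by UMI count the log2 differences were -0.31 for Dpp10, -0.64 for Cntn5, -0.25 for Epha5, -0.36 for Cntnap5a, 0.13 for Dscaml1 and -1.02 for Gm15398. Without WT replicate 2 they were -0.80 for Dpp10 and -0.69 for Epha5. Outside subclusters 3, 7 and 8 these 6 genes and Grm8 had too few UMIs for a test, with 0 to 18 per library. There Grm8, Dpp10, Epha5, Cntnap5a and Dscaml1 overlapped between genotypes, while Cntn5 and Gm15398 stayed lower in both Tbx1+/- libraries, on at most 7 UMIs in a library. Gm30613, a noncoding RNA gene, was at 59.4 and 61.4 CPM in the WT libraries and 20.3 and 18.6 CPM in the Tbx1+/- libraries and peaked in subcluster 6, at 206 CPM. Its log2 difference was -1.63 (SE 0.33), and -0.83 (SE 0.50) without subclusters 3, 7 and 8, where it was not called with the batch term. Gpr137 had 3 and 4 UMIs in the Tbx1+/- libraries against 13 and 9 in WT. With the batch term, Grm8, Dpp10, Cntn5, Epha5, Gm15398 and Gm30613 were called, and Cntnap5a, Dscaml1 and Gpr137 were not, nor were Lingo1, Scara3 and Erlin2. The other genes called in that fit, beside those named so far, were Hbb-bs, a haemoglobin gene, on the higher side and Cntn4, Adamtsl3, Kctd16, Gm20754, Brinp3, Pcdh15, Dab1, Khdrbs2 and Meis2 on the lower side. Hbb-bs was at 122 and 148 CPM in the WT libraries and 268 and 205 CPM in the Tbx1+/- libraries, and 1 nucleus of Tbx1+/- replicate 1 held 88 of that library's 198 UMIs. Without it that library was at 151 CPM, close to WT replicate 2. The 5 erythroid markers all had UMIs, and the 4 other than Hbb-bs summed to 153 and 123 CPM in WT and 231 and 172 CPM in Tbx1+/-. Their part in the difference was not tested. Of the 119 Cntn4 UMIs, 5 nuclei held 68.1%, and 1 nucleus held 34 of the 69 in WT replicate 2. Single nuclei of that library also held 37 of 45 Meis2 UMIs, 61 of 83 Brinp3 UMIs and 101 of 184 Pcdh15 UMIs. For 7 of the 24 genes called with the batch term, 5 nuclei held over 50% of the UMIs. Within the batches Meis2 differed in sign, at 1.02 and -3.22, and Khdrbs2 was at -2.08 and -0.03.

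Over all genes the median log2 difference was -0.01. Of 218 list members tested, 0 were called without the batch term and 5 (2.29%) with it, where 0.240% of all genes were called. The lists were chosen with earlier results of these data known, so these shares are a description and show no enrichment. These were the higher Tnc, Slc7a14 and Ptgds and the lower Slit3 and Meis2, a homeobox gene at 10.8 and 89.1 CPM in WT and 23.0 and 8.68 CPM in Tbx1+/-. The list counts are of members that did not overlap between genotypes, against 26.7% of all genes. Of 28 interstitial matrix genes tested, 5 were higher and 0 lower (median log2 difference 0.07), namely Fn1, Fbn1, Tnc, Col6a1 and Vcan. That median was -0.096 without WT replicate 1 and 0.38 without WT replicate 2. Of 18 basement membrane genes, 3 were higher and 0 lower (median 0.27), namely Col4a4, Lamc3 and Nid1. Leaving out 1 library moved that median between -0.0044, without Tbx1+/- replicate 2, and 0.61, without WT replicate 2. Nid1, the linker protein nidogen, was at 194 and 253 CPM in the WT libraries and 275 and 303 CPM in the Tbx1+/- libraries. The other members of both lists overlapped. Of 11 retinoic acid pathway genes, 3 were higher (Rdh10, Cyp26b1 and Aldh1a2) and 3 lower (Rara, Rxrb and Aldh1a1). Their median was 0.00, or -0.29 to 0.32 when a library was left out. Of 24 meningeal transcription factor genes, 5 were higher and 4 lower (median -0.02). Foxc1 was at 30.6 and 45.5 CPM in the WT libraries and 66.3 and 52.1 CPM in the Tbx1+/- libraries, a log2 difference of 0.64 (SE 0.32, unadjusted p 0.0668). Of 3 T-box genes, 0 were higher or lower (median 0.08).

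Among 33 secreted signals, 9 were higher and 5 lower (median 0.02), with Ptn at 2845 and 2742 CPM in the WT libraries and 3508 and 3511 CPM in the Tbx1+/- libraries and Fgf1, a growth factor gene, at 160.3 and 145 CPM in the WT libraries and 106 and 119 CPM in the Tbx1+/- libraries. In the IGF pathway, 3 of 8 genes were higher and 2 lower (median 0.17). Over the members still tested without subclusters 3, 7 and 8 the median was -0.045. Igf2 had a log2 difference of 0.49 (SE 0.28, unadjusted p 0.107), Igfbp2 of 0.46 (SE 0.27, unadjusted p 0.114) and Igf1 of -0.70 (SE 0.31, unadjusted p 0.0403). Igf2 and Igf1 thus differed in sign, and neither passed the test. Of 22 solute carriers, 6 were higher and 0 lower (median 0.10). Those 6 included the organic anion transporters Slc22a6 and Slc22a8, and Slc22a8 was at 234 and 224 CPM in the WT libraries and 275 and 265 CPM in the Tbx1+/- libraries. Of 14 junction genes, 3 were higher and 1 lower (median 0.15, or -0.031 to 0.39 when a library was left out). The lower one was the barrier claudin gene Cldn11, at 117 and 119 CPM in the WT libraries and 97.4 and 103 CPM in the Tbx1+/- libraries.

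Of 4 prostaglandin pathway genes, 0 were higher and 1 lower (median -0.31). That median was 0.16 over the members still tested without subclusters 3, 7 and 8, 0.052 without the nuclei in the top 8% by UMI count and 0.24 in nuclei with at least 2000 genes. Of 16 growth factor receptors, 2 were higher and 1 lower (median 0.05), and of 10 hedgehog and Wnt genes 1 was higher and 1 lower (median 0.05, or -0.18 without subclusters 3, 7 and 8). Of 12 cell cycle genes, 0 were higher and 1 was lower (median -0.34), the mitotic kinase gene Cdk1 at 43.2 and 47.5 CPM in the WT libraries and 23.0 and 34.7 CPM in the Tbx1+/- libraries. That median ran from -0.80 without Tbx1+/- replicate 1 to 0.044 without Tbx1+/- replicate 2. Of 21 genes of the region syntenic to 22q11.2, 3 were higher and 2 lower (median 0.04). Dgcr2, a surface receptor gene of that region, was at 34.2 and 37.6 CPM in the WT libraries and 62.2 and 63.2 CPM in the Tbx1+/- libraries, a log2 difference of 0.81 (SE 0.30, unadjusted p 0.0181).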

How the data were processed

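Raw UMI counts per gene and barcode were deposited for 4 PF/F and 4 PTB libraries of 10x 3′ single-nucleus RNA sequencing, which the authors made with Cell Ranger 7.0.0 in intron mode on mm10. Nuclei and types are those of the deposited annotation, which the authors made after removing nuclei with fewer than 1000 genes and outliers, by clustering, label transfer from an atlas and manual curation. The annotation also holds expected counts, each nucleus's UMIs once the authors had corrected free RNA with SoupX. They were not tested here and served for the ratio to the raw counts. Its median in Meningeal nuclei was 0.719 and 0.725 in the batch 1 libraries and 0.793 and 0.791 in the batch 2 libraries. Values here are uncorrected for free RNA.

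UMIs were summed over Meningeal nuclei per library. Genes passing the filter on low counts (10002) were tested between genotypes with TMM factors and edgeR 4.0.16's quasi-likelihood test, called at a Benjamini-Hochberg adjusted p under 0.05 and a change over 1.5-fold. Shares used the same quasi-likelihood test on nuclei of the 16 types at an adjusted p under 0.1, without TMM factors or a dispersion trend. The interaction compared the Meningeal sums with the sums of all other annotated nuclei in a fit with library as a block. The scripts were run on simulated library sums without batch differences or UMIs concentrated in few nuclei. That setting does not vouch for the calls with the batch term. DESeq2 1.42.0 was an alternative. Levels by type, lists and subclusters have no test. Subclusters were found with leidenalg 0.10.2 at resolution 1 on 15 principal components of 1500 variable genes, without correction for batch. A name needed at least 3 markers of a list at their highest and at least 1 among the 10 leading genes. No doublet caller was run, and the alternatives were nuclei with at least 2000 genes and dropping the top 8% of each library's annotated nuclei by UMI count.

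Named genes were Ptgds, Col3a1 and Tbx1, the 25 leading genes, list members of high level or known role, called genes, and the 10 genes per direction with the smallest unadjusted p among those whose libraries do not overlap between genotypes. The nuclei, the 16 marker lists and the 14 gene lists were chosen with earlier results of these data known. The remaining marker lists gave these sums in the Meningeal nuclei, as ranges over libraries: pia 213 to 648 CPM, inner arachnoid 382 to 486 CPM, arachnoid barrier and dural border 196 to 323 CPM, dura 57.4 to 142 CPM, choroid plexus 85.1 to 267 CPM (2637 in RL.early), microglia and macrophage 49.6 to 175 CPM (2737 in Immune), oligodendrocyte and Schwann 382 to 463 CPM, mostly Pdgfra, cartilage and bone 90.0 to 244 CPM with Ibsp at 0, and erythroid 271 to 499 CPM (5367 in Endothelial). A few genes are not reported here. Coordinates are from GENCODE vM21 (GRCm38), which held 99.8% of 32285 features.

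By the methods of the study, replicate numbers mark separate experiments. Deviations from the genotype means of same-numbered libraries had a correlation of 0.297 over 10002 genes. With 2 pools per genotype, p-values of the fit without a batch term rest on the spread between 2 libraries, moderated over genes. Those of the fit with it rest on 1 residual degree of freedom and on a spread taken from all genes. The intervals, and the limits that go with 0 counts, reflect counting error only.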

Additional observations from a re-analysis of the deposited data

Results flagged for a closer look

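The genotype difference of 8030451A03Rik, a noncoding RNA gene on the strand opposite to Tnc, differed between Meningeal nuclei and all other annotated PF/F nuclei by 1.94 on the log2 scale (SE 0.27, adjusted p 0.0164 in edgeR's interaction test, n = 4 libraries). The Meningeal level was 50.4 and 35.6 CPM in WT and 147 and 171 CPM in Tbx1+/-, and that of all other nuclei was 516 and 579 CPM in WT and 542 and 494 CPM in Tbx1+/-. It was higher in 2 of 2 Tbx1+/- libraries than in both WT libraries, as were 12.8% of the 10002 genes tested. Subcluster 8, which also held the highest Aqp4 (228 CPM) and Gfap (127 CPM) of the 10 subclusters, held 58.7% of its UMIs in Meningeal nuclei, and it made up 7.93% and 6.97% of the Meningeal nuclei in the Tbx1+/- libraries against 5.16% and 3.25% in the WT libraries. Without subcluster 8 the log2 difference in Meningeal nuclei was 0.97 (SE 0.37) against 1.88 with it, and the interaction was 1.03 (SE 0.35) and not called.

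Barcodes outside the annotation also held meningeal RNA. Of 9721 PF/F barcodes in the deposited matrices that have no annotation, 106 (1.09%) had at least 5 UMIs over the fibroblast and leptomeningeal markers other than Ptgds, and a higher sum there than for the markers of each other type. They numbered 31 and 12 in WT and 42 and 21 in Tbx1+/-, and 53 had fewer than 1000 genes, the limit that the annotation used. The same rule passed 545 of 706 Meningeal nuclei (77.2%) and 229 of 47531 other annotated nuclei (0.482%). With these barcodes added, the log2 difference of the Meningeal share was 0.29.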

How the results depend on the processing

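The Meningeal share was higher in Tbx1+/- under all 12 alternatives tried (log2 difference 0.24 to 0.54, and 0.25 to 0.33 when a library was left out), and none passed the threshold. The replicate block, that is the batch as a term, raised the calls between genotypes from 0 to 24, and no filter on low counts to 14. Leaving out a library gave 7 to 47 calls. Size factors of DESeq2's kind, the DESeq2 test, nuclei with at least 2000 genes, leaving out the nuclei with the highest UMI counts, and leaving out subcluster 8 or subclusters 3, 7 and 8 (chosen after seeing the data, as are the next 2) gave 0. The replicate block called 10 without subclusters 3, 7 and 8 and 28 without subcluster 8, where 5 and 20 were among the 24. For the interaction, 1 call became 20 without a filter on low counts, 0 without the nuclei of highest UMI counts, 0 without subclusters 3, 7 and 8 or subcluster 8, and 0 to 45 without 1 library. The sign turned for Tnc without subclusters 3, 7 and 8 (-0.39, and -0.37 with the replicate block, against 1.11), for Dscaml1 without the nuclei of highest UMI counts (0.13 against -0.90), and when a library was left out for Col3a1 (-0.083 to 0.388) and Ptgds (-0.016 to 2.52). The mean level of Col3a1 was 1196 CPM without subclusters 3, 7 and 8, against 887 CPM. Of the list medians recomputed under the alternatives, 172 moved by less than the spread between replicates and 24, of 10 lists, by more, and the sign turned for 10 of 14 lists when a library was left out and for 3 (IGF pathway, prostaglandin pathway, hedgehog and Wnt) without subclusters 3, 7 and 8. For 14 named genes, 52 of the recomputed differences passed the threshold that they had missed. Beyond what each setting removes, the cause was not tested. Numbers of subclusters were 8 at resolution 0.5 and 13 at 1.5, against 10. At 1.5, 69 of the 130 nuclei of subcluster 1 and 38 of the 71 barrier-like nuclei stayed in 1 cluster, and at 0.5 the 33 nuclei of subcluster 9 lay in a cluster of 62. Genes under 5.94 CPM, the highest limit at 0 counts of the 4 libraries, could not be followed at this depth.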
